A study of Mus musculus with 16 samples.

Results

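The 6 microRNAs described here, mmu-miR-103-3p, mmu-miR-107-3p, mmu-miR-378a-3p, mmu-miR-378a-5p, mmu-miR-193b-3p and mmu-miR-365-3p, are known for roles in adipocytes and in glucose and lipid metabolism. They were taken by name from a count table of 1915 mature mouse microRNAs, by a rule that does not use their values, and all 6 were in it. Earlier results of these data were known when they were chosen. Small RNA was sequenced from extracellular vesicles (EVs), the membrane-bound particles that cells release, in bone marrow plasma. The mice were 6 CAGS-Snorkel//Ocn-Cre animals (3 male, 3 female), set against 10 CAGS-Snorkel//Prx1-Cre animals (5 male, 5 female). All were 6 months old and on the C57BL/6N background, and all carried both the CAGS-Snorkel allele and a Cre driver. In both groups, vesicles were pulled down through the HA tag on a magnetic-bead column. The osteocalcin promoter (Ocn-Cre) is active in mature osteoblasts and osteocytes, and the Prx1 enhancer (Prx1-Cre) in early limb bud mesenchyme, whose descendants include bone, cartilage and marrow stromal cells. No mice without Cre are among the libraries, so vesicles that bound to the beads without the tag cannot be told apart from tagged ones. Sex is not given per library.

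A microRNA is a short RNA that guides an Argonaute protein to messenger RNAs, mainly through its seed (bases 2 to 8 from the 5′ end), and lowers their translation and stability. Several of these microRNAs lie in introns of metabolic genes. In mouse, raising miR-103 or miR-107 in liver or fat impairs insulin sensitivity, with caveolin-1 as a target. miR-378a and its passenger strand come from an intron of Ppargc1b, the gene of the coactivator PGC-1β, and mice that lack both resist diet-induced obesity. miR-193b and miR-365 are made from neighbouring hairpins and were reported to promote brown adipocyte differentiation in cultured mouse cells.

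The mature sequences, at hand for 4 of the 6, show which of these 4 share a seed and how far they differ in sequence. The first set is the near-identical pair, with the seed in capitals, followed by miR-16-5p, the most abundant other microRNA of the same extended family.
miR-103-3p: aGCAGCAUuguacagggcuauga
miR-107-3p: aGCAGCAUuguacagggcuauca
miR-16-5p: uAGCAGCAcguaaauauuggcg
miR-103-3p and miR-107-3p have the same seed, shared by no other of 1679 mature mouse names, and the same base at 22 of 23 positions. Their only difference, counted from the 5′ end, is G22C. A read that ends before base 22 cannot be assigned to one of them, and how the authors assigned such reads is not given in the sources used here. The letters AGCAGC begin at position 1 of miR-103-3p and miR-107-3p and at position 2 of miR-16-5p, and in the RNA strand they lie within the first 9 bases of 15 of the 1679 names (0.893%).

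The second set is the clustered pair, with the paralog that shares the miR-193b-3p seed, again with seeds in capitals.
miR-193b-3p: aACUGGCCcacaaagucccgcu
miR-193a-3p: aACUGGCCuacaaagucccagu
miR-365-3p: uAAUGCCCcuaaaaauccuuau
miR-193b-3p differs from miR-193a-3p by C9U, G20A and C21G. No other mature name has the seed of miR-365-3p.

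The hairpins of the first pair lie in introns of the Pank genes, which encode pantothenate kinases, the enzymes of the first step of coenzyme A synthesis. On GRCm38, Mir103-1 is at chr11:35782396-35782481 in an intron of Pank3, and Mir103-2 is at chr2:131288052-131288137 in an intron of Pank2. Mir107 is at chr19:34820687-34820773 in an intron of Pank1, and all 3 hairpins are on the strand of their host gene. Mir103-1 and Mir103-2 give the same mature 3p sequence, so the counts of miR-103-3p do not separate Pank3 from Pank2. Mir378a lies in an intron of Ppargc1b, on its strand. Mir193b, at chr16:13449523-13449601, and Mir365-1, at chr16:13453840-13453926, are 4238 bases apart on the same strand and lie within introns of the antisense gene Gm15738 on the opposite strand. Mir365-2 is on chromosome 11, 14365 bases from Mir193a, and gives the same mature miR-365-3p as Mir365-1.

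Library totals were 582660 to 1536421 counts in Ocn libraries and 225273 to 813770 counts in Prx1 libraries, with medians of 866010 and 351745. Depth thus differed between the groups. The labels do not tie each library to a mouse. The number of libraries in each group equals the number of mice stated, and p-values measure the spread between these libraries. The label names a fluid, not a cell type, so 14 microRNAs typical of cell types were checked. Erythroid, leukocyte, endothelial, muscle, cartilage and mesenchymal markers were all present, and their summed level was 145788 to 214540 CPM (a microRNA's share of the library total, in parts per 1e6) in Ocn libraries and 146624 to 169556 CPM in Prx1 libraries. Of 13 tested, 3 were lower in Ocn libraries and none was higher, while over all 234 tested 7.69% were lower and 5.98% higher. The 3 were miR-150-5p of lymphocytes, miR-133a-3p of muscle and miR-486a-5p of red cells (edgeR quasi-likelihood test, adjusted p 0.00125, 0.00819 and 0.0451). Some other markers of the same cells had positive log2 fold changes that did not pass. These were 0.58 for miR-144-3p and 0.22 for miR-451a of red cells and 0.34 for miR-1a-3p of muscle (adjusted p 0.0569, 0.440 and 0.187). miR-206-3p of muscle had a negative one, -0.29, that did not pass either (adjusted p 0.487). The other arm of miR-133a, miR-133a-5p, is not among the 14 and had a positive one, 0.77, that did not pass (edgeR adjusted p 0.0883). miR-122-5p of liver was not tested. It had 3 to 19 counts in Ocn libraries and 0 to 10 counts in Prx1 libraries other than Prx1 5, which had 555 counts.

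The 6 microRNAs fell into 3 tiers of abundance. In CPM of the library total, miR-378a-3p and miR-103-3p averaged between 3981 and 4306 and ranked 33 and 36 of all entries in Ocn libraries, and 35 and 34 in Prx1 libraries. miR-107-3p, miR-365-3p and miR-378a-5p averaged between 57.3 and 91.5 CPM in either group, with ranks of 143 to 173, and miR-193b-3p averaged under 3 CPM. The tiers did not overlap: miR-103-3p was above miR-107-3p, and miR-378a-5p above miR-193b-3p, in 6 of 6 Ocn and 10 of 10 Prx1 libraries. Within a tier the order was not fixed. miR-378a-3p exceeded miR-103-3p in 4 of 6 Ocn and 4 of 10 Prx1 libraries, miR-107-3p exceeded miR-365-3p in 5 of 6 and 6 of 10, and miR-365-3p exceeded miR-378a-5p in 2 of 6 and 8 of 10. CPM is not scaled by length, but the 4 members with a sequence are 22 or 23 bases long. Ligation efficiency, which differs between microRNAs, is part of any such ranking.

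**Figure D1:**
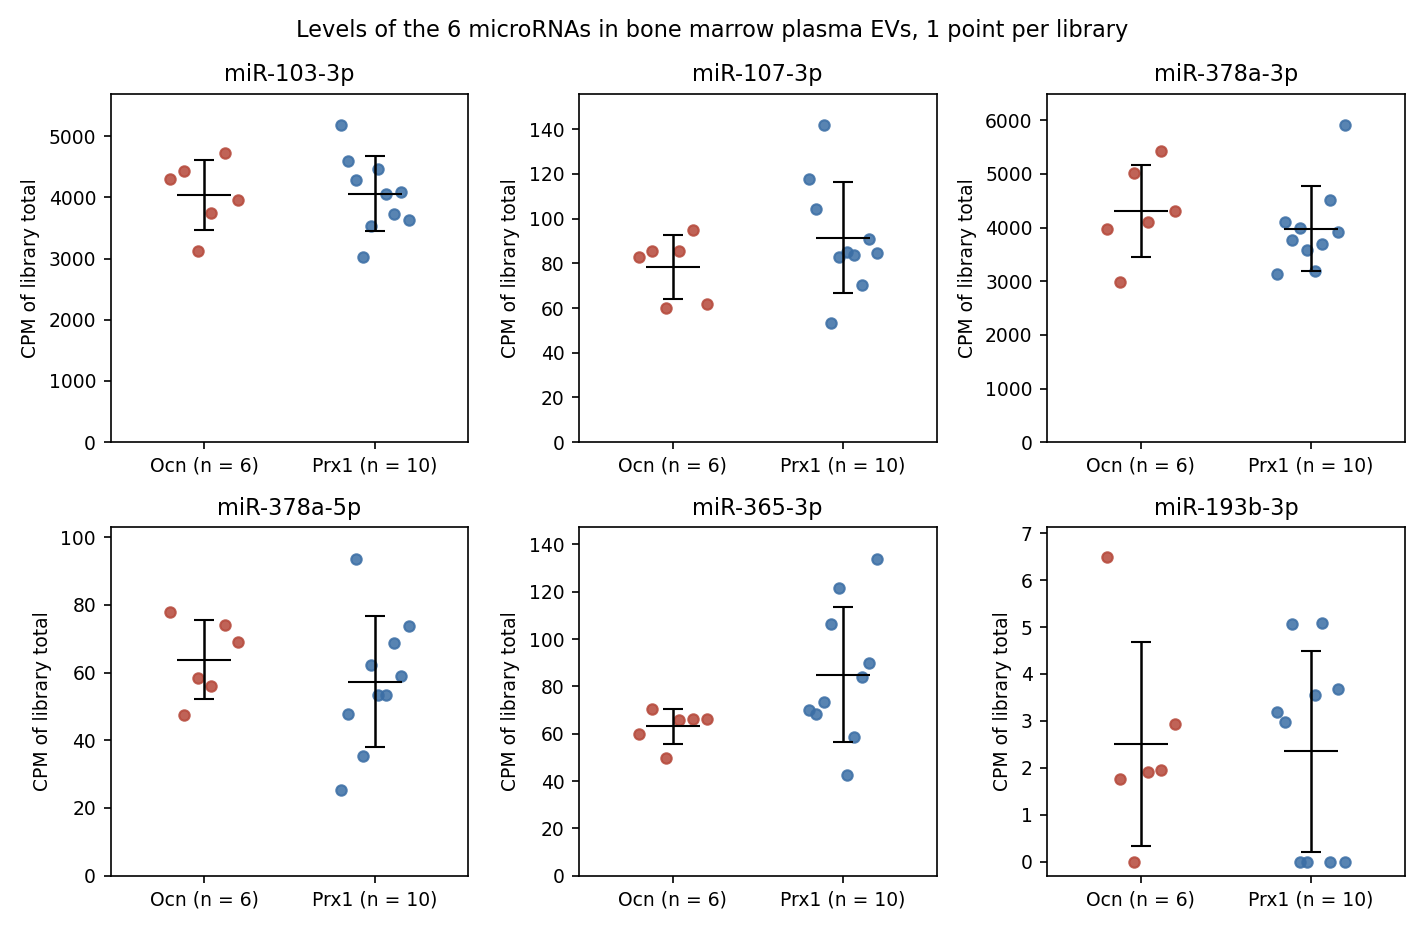
Level of each of the 6 microRNAs in CPM of the library total (linear axis), 1 point per library, with the mean and SD drawn as bars, for 6 Ocn libraries (left, red) and 10 Prx1 libraries (right, blue). The groups overlap in every panel. All 6 Ocn points of miR-365-3p lie below the Prx1 mean.

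None of the 5 members that could be tested differed between Ocn and Prx1 libraries at an adjusted p under 0.05 (edgeR quasi-likelihood test, 6 against 10 libraries, Benjamini-Hochberg over 234 microRNAs). DESeq2 and limma voom also called 0 of 5, and 1 of 5 had an unadjusted p under 0.05, miR-365-3p. Over all 234 tested, 32 were called, which is 13.7%, with 14 higher (5.98%) and 18 lower (7.69%) in Ocn libraries. A count of 0 among 5 is near that background. With the library total as a covariate, 0 of 234 were called in either direction (40 had an unadjusted p under 0.05), so each call named here was lost in that fit. Depth differed between the groups, so that fit cannot tell depth from group. With every library thinned to the depth of the shallowest, 12 of 195 tested were higher and 11 lower in Ocn libraries. The median log2 fold change was -0.04 over the 5 members and 0.01 over all 234, and the median size regardless of sign was 0.23 over all 234. In counts simulated on these libraries, the test recovered 52.6% of 1.5-fold changes, 93.2% of 2-fold changes and 98.9% of 4-fold changes among those tested. These rates are pooled over microRNAs of all abundances, so they do not give the rate for members with few counts. In bulk vesicle RNA, fewer vesicles that hold a microRNA and fewer copies in each cannot be told apart.

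**Figure D2:**
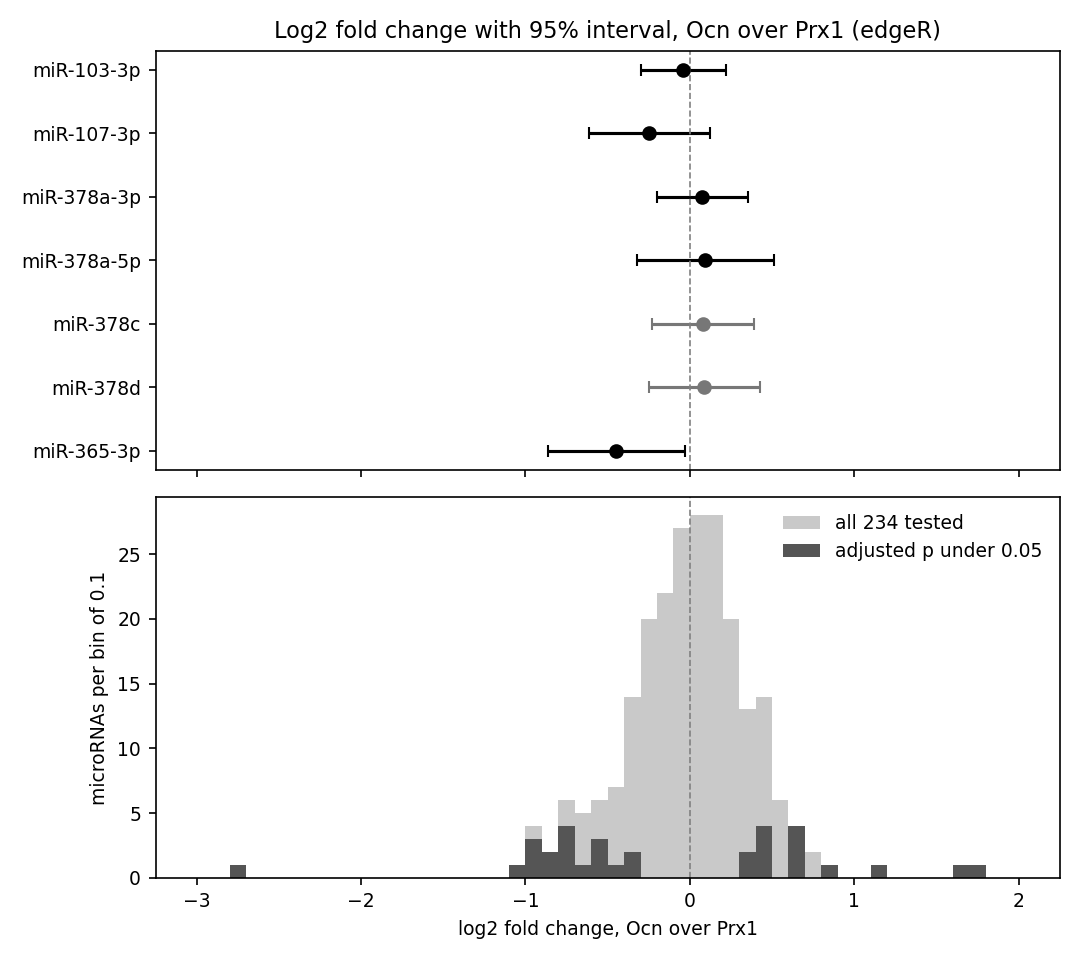
Top, log2 fold change of Ocn over Prx1 with its 95% interval (edgeR) for the 5 tested members (black) and for the related miR-378c and miR-378d (grey). Bottom, the number of microRNAs per bin of 0.1 for all 234 tested (light) and the 32 with an adjusted p under 0.05 (dark). The intervals of miR-103-3p, miR-107-3p, miR-378a-3p and miR-378a-5p span 0, and that of miR-365-3p ends just below 0.

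miR-103-3p was nearly level between the groups. Its lowest, median and highest values were 3122, 4125 and 4718 CPM in Ocn libraries and 3027, 4074 and 5178 CPM in Prx1 libraries. The groups overlapped over most of their range, and 8 of 10 Prx1 libraries lie within the range of the Ocn libraries. The mean was 4043 ± 569.6 CPM in Ocn libraries and 4058 ± 613 CPM in Prx1 libraries (SD, n = 6 and 10). The log2 fold change was -0.04 (SE 0.12, edgeR adjusted p = 0.861), and its sign turned with the scaling or the library left out. The interval of the fold ran from 0.813 to 1.16.

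miR-107-3p, which differs from it by 1 base, was the minor one of the pair. It had 60.1, 84.0 and 95.03 CPM as lowest, median and highest in Ocn libraries and 53.3, 84.99 and 142 CPM in Prx1 libraries. Its lowest Prx1 value rests on 12 counts (95% Wilson interval 30.5 to 93.1 CPM, which like all intervals on counts here covers counting error only). 3 Prx1 libraries were above every Ocn library, 1 was below, and the medians were almost equal. The mean was 78.4 ± 14.2 CPM in Ocn libraries and 91.5 ± 24.7 CPM in Prx1 libraries, with a log2 fold change of -0.25 (SE 0.18, edgeR adjusted p = 0.380) and an interval of the fold from 0.652 to 1.09.

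Of the 2 near-identical microRNAs, miR-107-3p was a small share of the pair in every library. miR-107-3p made up 1.54% to 2.24% of the summed counts of the pair in Ocn libraries (1.93% pooled) and 1.73% to 3.21% in Prx1 libraries (2.21% pooled). The spread of that share was about what counting alone gives: the chi-square per degree of freedom was 0.876 among Ocn libraries and 1.24 among Prx1 libraries. With 12 to 146 counts of miR-107-3p per library, small differences in the share would be missed. The log2 ratio of miR-103-3p to miR-107-3p averaged 5.68 ± 0.17 in Ocn libraries and 5.48 ± 0.24 in Prx1 libraries. That is a ratio of 51.4 against 44.6, and the difference of 0.21 did not pass (exact 2-sided permutation test, p = 0.0759, adjusted over 3 ratios 0.228; 95% interval -0.02 to 0.44). Prx1 3 had the lowest ratio, 29.9, and without it the difference was 0.14.

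Across libraries, the correlation of miR-103-3p with miR-107-3p was positive in Prx1 libraries and did not pass correction over 15 pairs of members. The values correlated were log2 CPM scaled with the TMM factors of the edgeR fit, not the CPM of the library total used for levels. Over the 10 Prx1 libraries, Pearson's r was 0.77 (permutation p = 0.0127, adjusted 0.0726) and Spearman's rho 0.76 (permutation p = 0.0155, adjusted 0.116). Without the 2 libraries farthest from the median, r was 0.38. In the 6 Ocn libraries r was 0.79 (exact permutation p = 0.0736, adjusted 0.438) and rho 0.37 (p = 0.497, adjusted 0.985). Without 2 of these 6 libraries r was 0.01, and so few libraries cannot show what the relation rests on. The correlation of miR-103-3p with miR-365-3p was negative among Prx1 libraries, with r = -0.66 (permutation p = 0.0387, adjusted 0.116), rho = -0.81 (p = 0.00728, adjusted 0.109) and r = -0.90 without 2. In Ocn libraries the same pair had r = 0.84 (exact permutation p = 0.115, adjusted 0.438), rho = 0.26 (p = 0.658, adjusted 0.985) and r = -0.83 without 2. The difference between the groups in these correlations was not tested, and none of the 15 pairs passed correction in either group. All values of a library share its total and its TMM factor, so a high share of one microRNA can lower the others. How far these correlations depend on the scaling was not tested. Reads too short to tell miR-103-3p from miR-107-3p may be counted under either, and their part in the correlation of that pair was not tested.

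miR-378a-3p, the more abundant arm of the Ppargc1b intron hairpin, had 2983, 4208 and 5435 CPM as lowest, median and highest in Ocn libraries and 3136, 3847 and 5910 CPM in Prx1 libraries. 5 of 6 Ocn libraries were above the Prx1 mean, yet 9 of 10 Prx1 libraries lay within the range of the Ocn libraries. The highest value of either group was that of Prx1 10. The mean was 4306 ± 857 CPM in Ocn libraries and 3981 ± 793 CPM in Prx1 libraries, and the log2 fold change was 0.08 (SE 0.13, edgeR adjusted p = 0.766; interval of the fold 0.869 to 1.28). Fitted with the library total as a covariate the sign turned, to -0.01.

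miR-378a-5p, the passenger arm of the hairpin, was far lower. It had 47.5, 63.7 and 77.8 CPM as lowest, median and highest in Ocn libraries and 25.4, 56.2 and 93.7 CPM in Prx1 libraries. The Prx1 libraries were the more spread out, and their lowest value rests on 8 counts (Wilson interval 12.9 to 50.2 CPM). The mean was 63.8 ± 11.7 CPM in Ocn libraries and 57.3 ± 19.3 CPM in Prx1 libraries. The log2 fold change was 0.09 (SE 0.20, edgeR adjusted p = 0.820; interval of the fold 0.799 to 1.43), and -0.06 with the library total as a covariate.

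The use of the 2 arms did not differ between the groups beyond their spread. The 3p arm outnumbered the 5p arm 66.6-fold in Ocn libraries (range 50.6 to 84.8) and 70.5-fold in Prx1 libraries (range 39.7 to 116). The mean log2 ratio was 6.06 ± 0.26 in Ocn libraries and 6.14 ± 0.45 in Prx1 libraries, a difference of -0.08 (exact 2-sided permutation test, p = 0.698, adjusted over 3 ratios 0.877; 95% interval -0.5 to 0.34). In a limma fit over the arm ratios of 44 hairpins the adjusted p for Mir378a was 0.843.

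The related entries miR-378c and miR-378d were close to miR-378a-3p in direction and size of the difference. miR-378c averaged 376 ± 105 CPM in Ocn libraries and 344 ± 67.3 CPM in Prx1 libraries, with a log2 fold change of 0.08 (SE 0.15, edgeR adjusted p = 0.784). miR-378d averaged 74.9 ± 11.05 CPM in Ocn libraries and 68.6 ± 15.1 CPM in Prx1 libraries, with a log2 fold change of 0.09 (SE 0.16, adjusted p = 0.784). miR-378b fell below the filter, with 11.9 ± 3.54 CPM in Ocn libraries and 8.72 ± 2.99 CPM in Prx1 libraries. The ratio of miR-378a-3p to miR-378c, chosen after the values were seen, was 11.6 in Ocn libraries and 11.5 in Prx1 libraries, and that of miR-378a-3p to miR-378d was 56.6 and 57.1. For the share of miR-378d in its pair with miR-378a-3p, the chi-square per degree of freedom was 0.342 among Ocn and 0.439 among Prx1 libraries. For miR-378c it was 3.82 and 0.656. miR-378c and miR-378b share a run of 19 bases, and reads of such relatives may be split between entries, which was not tested. No sequence of miR-378a-3p was at hand, so the bases it shares with them were not counted.

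**Figure D3:**
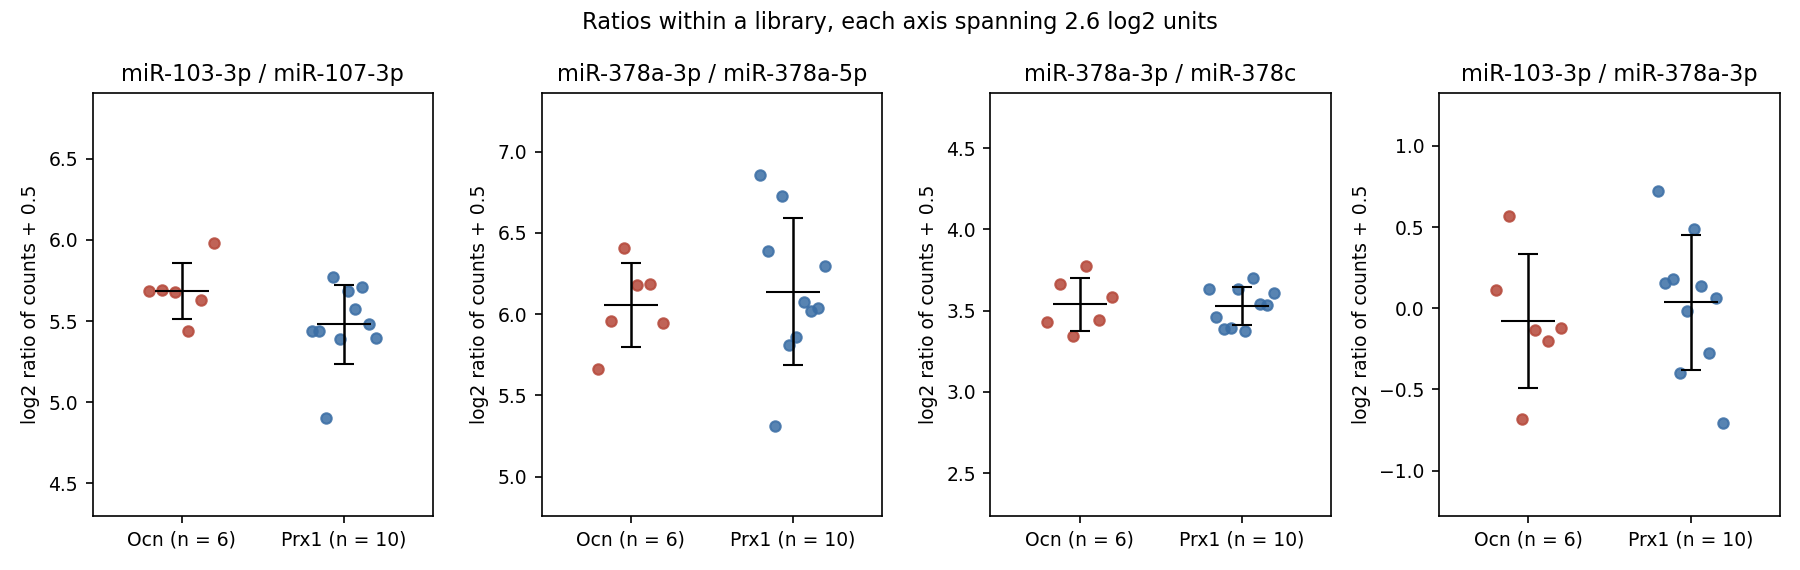
Log2 ratio of counts (0.5 added to each) of 2 microRNAs within a library, 1 point per library with the mean and SD, for Ocn (left, red) and Prx1 (right, blue) libraries, every axis spanning the same log2 range. The ratios of miR-103-3p to miR-107-3p and of miR-378a-3p to miR-378c vary less than the ratio of the unrelated miR-103-3p to miR-378a-3p, whose SD is 0.41 in Ocn and 0.42 in Prx1 libraries. That of miR-378a-3p to miR-378a-5p, the 2 arms of 1 hairpin, has an SD of 0.26 in Ocn and 0.45 in Prx1 libraries.

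The ratio of the 2 abundant members, miR-103-3p to miR-378a-3p, also chosen after the values were seen, ran from 0.622 to 1.49 in Ocn libraries and from 0.614 to 1.65 in Prx1 libraries. Their mean levels were similar, but their order differed between single libraries: Ocn 2 held 4431 CPM of miR-103-3p and 2983 CPM of miR-378a-3p, and Ocn 3 held 3122 and 5018 CPM.

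miR-365-3p had the largest fitted difference of the 5. Its lowest, median and highest values were 49.8, 65.9 and 70.4 CPM in Ocn libraries and 42.6, 78.6 and 134 CPM in Prx1 libraries. All 6 Ocn libraries were below the mean and the median of the Prx1 libraries, and 6 of 10 Prx1 libraries were above every Ocn library, while 1 was below. The mean was 63.1 ± 7.31 CPM in Ocn libraries and 84.8 ± 28.6 CPM in Prx1 libraries, and the log2 fold change was -0.45 (SE 0.20, interval of the fold 0.551 to 0.978). The unadjusted p was 0.0357 and the edgeR adjusted p 0.149, so the difference did not pass. Its size ranked 185 of 234 from the smallest. Prx1 5, the library with 555 counts of liver miR-122-5p, had 121 CPM, and without it the log2 fold change was -0.38 (edgeR adjusted p = 0.257). Without Ocn 3 the log2 fold change was -0.32 and without Prx1 10 it was -0.36. Over all libraries left out 1 at a time it ran from -0.52 to -0.32.

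miR-193b-3p, made from the hairpin next to Mir365-1, was near the detection limit. It had 4, 2, 0, 2, 3 and 2 counts in Ocn 1 to 6, and 1, 1, 2, 0, 0, 1, 2, 0, 3 and 0 counts in Prx1 1 to 10. Pooled, this is 13 counts or 2.32 CPM in Ocn libraries (Wilson interval 1.36 to 3.97 CPM) and 10 counts or 2.46 CPM in Prx1 libraries (1.34 to 4.53 CPM). A count of 0, taken as a limit of 3 counts of the library total, allows up to 5.15 CPM in Ocn 3 and 5.03 to 13.3 CPM in the 4 Prx1 libraries without a count (the upper Wilson limits are 6.59 CPM and 6.44 to 17.1 CPM), so a difference was not detectable at this depth. A fit without the filter gave a log2 fold change of 0.02 with an interval of -1.73 to 1.76 (edgeR adjusted p = 0.990). The mean log2 ratio of miR-193b-3p to miR-365-3p was -4.63 ± 0.94 in Ocn libraries and -4.74 ± 1.44 in Prx1 libraries. The difference of 0.11 (exact 2-sided permutation test, p = 0.877, adjusted over 3 ratios 0.877; 95% interval -1.32 to 1.52) turned sign with 1 count added in place of 0.5.

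The other arms and the paralog of these 2 microRNAs had low counts. miR-193b-5p had 13 counts over the Ocn libraries and 17 over the Prx1 libraries. The seed-sharing paralog miR-193a-3p had 1 and 0 counts, and miR-193a-5p had 51 and 36. Of the 5p arms of the miR-365 hairpins, miR-365-2-5p had 43 counts in Ocn libraries and 38 in Prx1 libraries, and miR-365-1-5p had 4 in each. The 5p arms of the Pank hairpins were all but absent: miR-103-2-5p had 2 and 1 counts, miR-103-1-5p had 1 and 0, and miR-107-5p had 0 in every library.

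The members differed in how much they varied between libraries. The coefficient of variation of miR-365-3p was 11.6% in Ocn libraries, below the 13.7% that counting alone would give, and 33.7% in Prx1 libraries, where counting gives 18.1%. That of miR-378a-5p was 18.3% and 33.8%, with 13.8% and 21.6% from counting. miR-107-3p varied by 18.1% in Ocn and 27.0% in Prx1 libraries. The abundant miR-103-3p varied by 14.1% and 15.1%, and miR-378a-3p by 19.9% in both, where counting gives 1.67% to 2.63%. Over all 234 tested the median was 22.3% in Ocn libraries and 27.4% in Prx1 libraries. Of the 20 microRNAs nearest in abundance, 1 varied less than miR-365-3p in Ocn libraries and 14 in Prx1 libraries. Whether the spread differs between the groups was not tested.

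**Figure D4:**
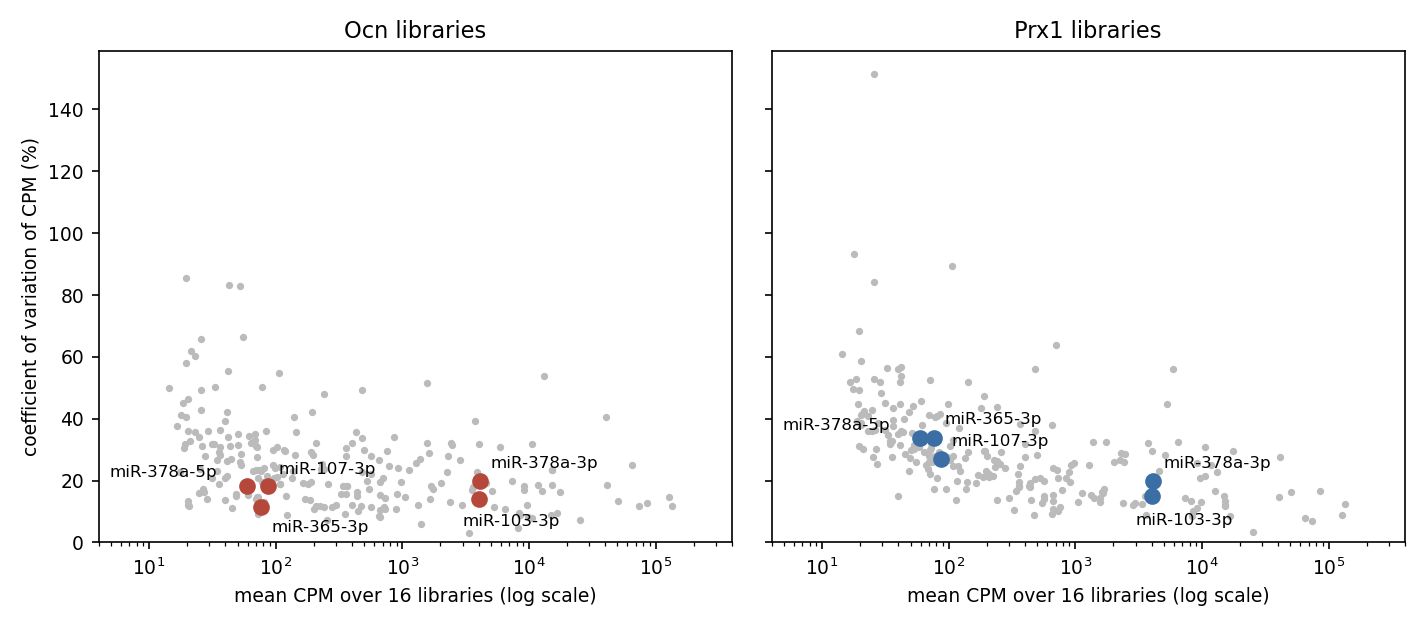
Coefficient of variation of CPM (%) against the mean CPM over 16 libraries (log axis), 1 point per tested microRNA, for Ocn libraries (left) and Prx1 libraries (right), with the 5 tested members in colour. miR-365-3p lies at 11.6% in Ocn and 33.7% in Prx1 libraries, while miR-103-3p lies at 14.1% and 15.1%.

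The microRNAs whose levels followed each member most closely were found by Spearman's rho over the 16 libraries, among 233 others. It was taken on log2 CPM scaled with the TMM factors, after each group's mean was subtracted. For miR-103-3p they were miR-185-5p (0.87), miR-25-5p (0.83) and miR-744-5p (0.81), and for miR-107-3p they were miR-15b-5p (0.82), miR-744-5p (0.80) and miR-128-3p (0.75). miR-744-5p is on both lists. miR-378a-3p was followed by its relatives miR-378c (0.84) and miR-378d (0.76) and then by miR-125b-1-3p (0.73). The part of reads split between such relatives was not tested. The nearest to miR-378a-5p were miR-133a-5p (0.60), miR-361-3p (0.52) and miR-1198-5p (0.51), so its own 3p arm was not among them. Those nearest to miR-365-3p were miR-3102-3p (0.87), miR-708-5p (0.86) and miR-127-3p (0.80). Of these, miR-3102-3p was lower in Ocn libraries, with 4.08 ± 3.48 CPM against 29.0 ± 19.8 CPM in Prx1 libraries (edgeR adjusted p = 0.00249). Its Ocn mean is near the limit of 3 counts, which is 1.95 to 5.15 CPM in Ocn libraries, so the size of its difference is uncertain. The median rho over all 233 was between -0.05 and 0.06 for each member, and the values describe these libraries only.

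Other microRNAs reported to act in fat cells or metabolism are given here by list, beside the 13.7% of all 234 tested that were called (5.98% higher and 7.69% lower in Ocn libraries). Among those reported to promote white adipocyte differentiation, 1 of 10 tested was lower in Ocn libraries and none higher: miR-30d-5p, with 7463 ± 892 CPM against 10875 ± 2268 CPM in Prx1 libraries (log2 fold change -0.58, SE 0.13, edgeR adjusted p = 0.00478). DESeq2 and voom each called 2 of these 10. Among those reported to restrain it, 2 of 10 were higher and none lower, and DESeq2 and voom each called 3. miR-27a-3p, which targets the adipogenic receptor PPARγ, had 699 ± 139 CPM in Ocn libraries against 427 ± 89.2 CPM in Prx1 libraries (log2 fold change 0.66, SE 0.14, adjusted p = 0.00299). miR-27b-3p, its paralog, had 4264 ± 758 CPM against 3222 ± 283 CPM (0.36, SE 0.11, adjusted p = 0.0220). The medians of these lists were 0.12 and 0.06, with 6 of 10 above 0 in each, beside 0.01 over all 234.

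Of the 10 tested microRNAs reported to promote brown or beige adipocytes, edgeR and voom called none, DESeq2 called 1, and 1 had an unadjusted p under 0.05. The most abundant was miR-26a-5p, with 27824 ± 2057 CPM in Ocn libraries and 23900 ± 775 CPM in Prx1 libraries (log2 fold change 0.19, SE 0.08, edgeR adjusted p = 0.154). Among the 8 tested that were reported to restrain these cells, miR-27b-3p was higher, and the muscle microRNAs miR-133a-3p (-0.68, SE 0.16) and miR-133b-3p (-0.96, SE 0.24, edgeR adjusted p = 0.0101) were lower. That is 3 of 8 called, with 3 by DESeq2 and 4 by voom, beside the 13.7% of all tested. The other arm of miR-133a, miR-133a-5p, is not on this list. It had a positive value that did not pass (0.77, SE 0.30, edgeR adjusted p = 0.0883). The list medians were 0.10 and 0.02. In the glucose, insulin and lipid list, 1 of 6 tested was lower and none higher, miR-29a-3p, with 12624 ± 2063 CPM against 20782 ± 6157 CPM in Prx1 libraries (-0.76, SE 0.18, edgeR adjusted p = 0.00756), and the median was -0.16. DESeq2 called 1 and voom 2 of these 6. Of the cell type markers, miR-150-5p, miR-133a-3p and miR-486a-5p were lower in the same libraries. Among those that did not pass, miR-144-3p, miR-451a and miR-1a-3p had positive values and miR-206-3p a negative one. The part of these markers in the calls was not tested.

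The rest of the extended group of miR-15 and miR-107, which holds the AGCAGC letters shown above, gave no call in 7 tested by edgeR, DESeq2 or voom, while 2 had an unadjusted p under 0.05. miR-16-5p, with 136610 ± 15913 CPM in Ocn libraries and 134812 ± 16636 CPM in Prx1 libraries, was the most abundant (log2 fold change -0.01, SE 0.10, edgeR adjusted p = 0.936).

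**Figure D5:**
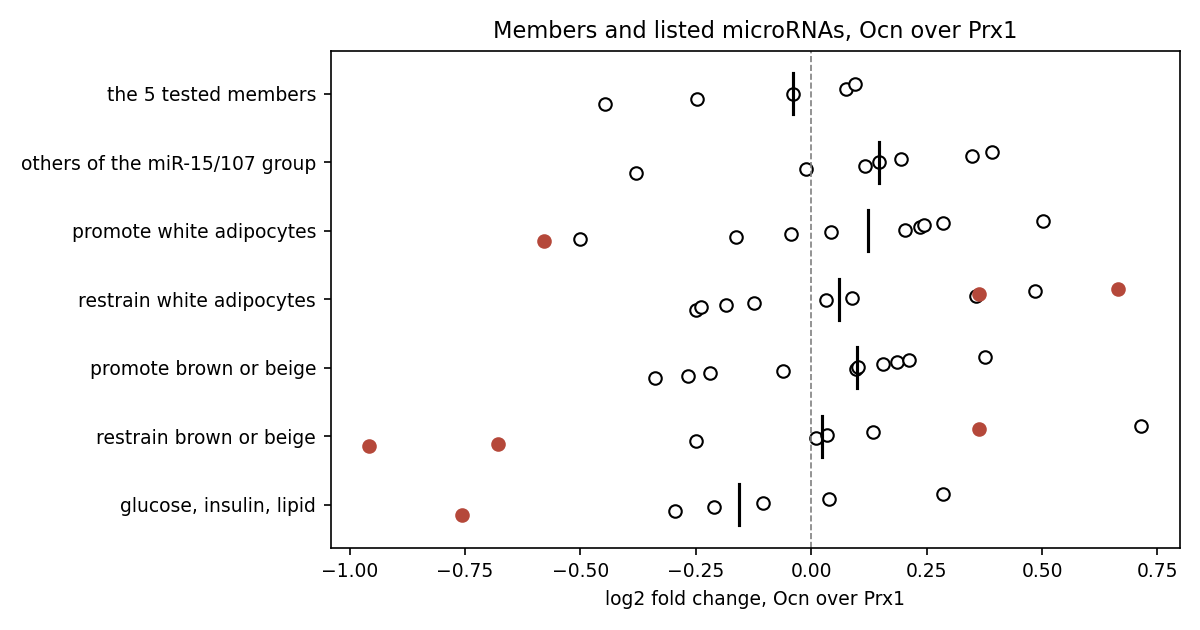
Log2 fold change of Ocn over Prx1 (edgeR) for the tested microRNAs of each list, 1 circle each, filled where the adjusted p was under 0.05, with the list's median as a bar and 0 dashed. The 5 tested members lie between -0.45 and 0.09 with no filled circle, and some microRNAs stand in more than 1 list.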

How the data were processed

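The deposited table holds raw counts per mature microRNA and library, not normalized by the authors, as its whole numbers and differing column totals show. Per the labels' protocols, RNA was extracted with the RNeasy Plus kit and the QIAseq miRNA kit was used on 1 ng of it. Per the submitters' processing notes, cutadapt 1.18 and the build mm10 were used. Not given in the sources used here are the aligner, counter, annotation and use of molecular identifiers, so amplification copies may be among the counts. Of 1915 entries, 973 had a count and 234 passed filterByExpr by group, holding 99.69% to 99.86% of each library. No 2 libraries of a group agreed within sampling noise (lowest chi-square per degree of freedom 5.42 over 60 pairs).

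Differences were tested with edgeR 4.0.16 in R 4.3.3 (TMM factors 0.919 to 1.10, robust quasi-likelihood fit, a model of group alone). P-values were adjusted by Benjamini-Hochberg over those 234, with a threshold of 0.05. The test was checked on 10 simulated sets, where 4.87% of calls were false. DESeq2 1.42.0, limma 3.58.1 (voom), 3 other scalings, other filters, thinning, depth as a covariate, a replicate block and leaving out each library were the alternatives. Levels are CPM of the library total, as mean ± SD. Ratios within a library, with 0.5 added to each count, were compared by exact permutation over all splits of 6 and 10 libraries. Correlations were taken on log2 CPM scaled with the TMM factors, with 1 added. Those between members were tested by exact or 100000 permutations (scipy 1.17.1).

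Mature sequences are from RefSeq (GRCm38.p6), matched by name for 4 of 6 members and 1623 of 1915 entries. Hairpin positions and host genes are from GENCODE on GRCm38. All members were named, with their other arms, paralogs and seed-sharing entries, the 3 entries most like each, and of each list those called or else the most abundant. Members and lists were chosen with earlier results of these data known, and the lists come from general knowledge of the literature.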

Additional observations from a re-analysis of the deposited data

Results flagged for a closer look

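In 2 of 18 groups of values examined, 1 library stood apart from the rest of its group by Dixon's criterion, which chance alone meets in about 1 of 20 groups. miR-378a-3p in Prx1 10 was 5910 CPM, the highest of all libraries, and its gap to the next Prx1 library was 0.504 of the group's range. Without that library the log2 fold change of miR-378a-3p was 0.15 (edgeR adjusted p = 0.465). The log2 ratio of miR-103-3p to miR-107-3p in Prx1 3 was 4.90, the lowest of all libraries, with a gap of 0.56 of the range. Without it the difference between Ocn and Prx1 libraries in that ratio was 0.14 (exact permutation test, adjusted p = 0.364).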

How the results depend on the processing

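No member was called under any of 29 alternatives of the fit. The log2 fold change of miR-365-3p kept its sign, from -0.55 to -0.31, with adjusted p of 0.0747 or more, and that of miR-107-3p lay between -0.45 and -0.10. The sign of miR-103-3p turned with voom (0.044), upper quartile scaling (0.10), no low-count filter (0.042) and without Ocn 3, Ocn 6, Prx1 1 or Prx1 8 (range over all libraries left out -0.071 to 0.105). With the library total as a covariate, miR-378a-3p was -0.0061, miR-378a-5p -0.060 and miR-365-3p -0.55 (adjusted p = 0.347). Upper quartile scaling shifted the median log2 fold change of all tested to 0.13.

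Calls over all tested, 14 higher and 18 lower, were 24 higher with voom, 26 higher and 11 lower with upper quartile scaling, 11 lower after thinning, and 0 in each direction with the library total as a covariate, where 40 had an unadjusted p under 0.05. Leaving out 1 library gave 8 to 20 higher, with 9, 8 and 9 without Prx1 1, 2 and 3. The cause was not tested.

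Same-numbered libraries did not deviate together in every pair (correlations 0.01 to 0.22). With the replicate number as a block over 12 libraries, 13 were higher and 14 lower, against 14 and 14 without it, no member was called, and the log2 ratio of miR-193b-3p to miR-365-3p differed by -0.22. That difference was -0.12 with 1 count added and ranged from -0.21 to 0.36 without 1 library, below 0 without Ocn 1, Prx1 5, Prx1 8 or Prx1 10. Counts of at most 4 limit miR-193b-3p.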
